A study of Mus musculus with 6 samples.

Results

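HOXA9, the homeodomain factor that holds these cells in a progenitor state, was followed together with its cofactors and targets. The group holds 9 genes chosen by symbol, out of 27998 gene columns. They are Hoxa9 with its cluster neighbours Hoxa7 and Hoxa10, the cofactor genes Meis1, Pbx2 and Pbx3, and the target genes Myb, Sox4 and Bcl2. Of these 9 genes, 8 had a UMI in a kept cell and 6 reached a mean of 20 CPM (counts per 1000000 UMIs of a library) over the 6 libraries. Those 6 are Hoxa9, Meis1, Pbx2, Myb, Sox4 and Bcl2, and calls of higher or lower were limited to genes at that mean level.

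The cells were iGMPs, which are granulocyte-macrophage progenitors of C57BI/6 mouse bone marrow (strain as spelled in the labels) that carry HOXA9 fused to an estrogen receptor domain and a GFP reporter of the Lysozyme promoter (Lys-GFP). All 6 libraries were made from such cells, grown with stem cell factor. In the CAF-1 OFF arm, a clone with an IPTG-inducible hairpin against Chaf1b, which encodes part of the CAF-1 histone chaperone, received IPTG while estradiol stayed in the medium. In the HOXA9 OFF arm, a clone with a control hairpin was washed and grown without estradiol, which takes the fusion protein out of action. Each arm was sampled at 0, 48 and 96 h by 3′ single-cell RNA-seq on the 10x Chromium platform, and the 0 h library of each arm was kept in estradiol. Every group was 1 library of 1 clone, so no difference between groups could be tested, and clone and treatment cannot be told apart between the arms. Intervals given below are exact 95% intervals, Poisson for levels and binomial for folds and shares, and cover counting error only.

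The 5872 kept cells of 7821 barcodes held between 3524285 and 5589486 UMIs per library. A unique molecular identifier (UMI) marks 1 captured transcript molecule. Mean UMIs per cell lay between 5921 and 6514 in CAF-1 OFF, but went from 8859 at 0 h to 3782 at 48 h and 2334 at 96 h in HOXA9 OFF. CPM is the share of a library's UMIs and takes no account of this, so UMIs per 100 cells are given beside CPM where they change the picture. The filters on genes per cell and mitochondrial UMIs removed 66.2% of the barcodes of the HOXA9 OFF library at 0 h and 41.7% of those of CAF-1 OFF at 0 h, against 0.198% to 18.3% elsewhere. Pairs of libraries shared between 0 and 8 barcodes. Of the progenitor markers, Kit and Cd34 were present at 0 h in both arms (80.9 to 82.8 CPM and 660 to 756 CPM). So were Cebpa (51.7 to 58.0 CPM) and Fcgr3 (135 to 138 CPM). Csf1r was nearly absent at 0 h, with 3 UMIs (0.712 CPM) in the CAF-1 OFF library and 0 UMIs in the other arm. After estradiol withdrawal Csf1r reached 57.6 CPM at 48 h and 114 CPM at 96 h. With IPTG it stood at 1.97 and 2.23 CPM at these times. The defining T cell, B cell and liver markers Cd3e, Ms4a1 and Alb had 0 UMIs in every library. The hairpin target Chaf1b was at 35.6 CPM at 0 h in CAF-1 OFF and 11.1-fold lower at 48 h (interval 6.76 to 19.2) and 5.49-fold lower at 96 h (3.78 to 8.17). In HOXA9 OFF, where no hairpin against it was present, it was at 51.5, 15.3 and 1.14 CPM by time.

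HOXA9 belongs to the posterior HOX proteins, which bind DNA weakly alone and more firmly with partners of the TALE class of homeodomain proteins. MEIS and PBX proteins are those partners. In myeloid progenitors HOXA9 with MEIS1 maintains self-renewal, and its gene is switched down as granulocytes and monocytes mature. Myb encodes a transcription factor needed by blood progenitors, Sox4 encodes an HMG-box factor of the SOXC group, and Bcl2 encodes a mitochondrial protein that protects cells from apoptosis. The deposited counts have 1 column for Hoxa9, which does not separate transcripts of the endogenous gene from those of the fusion construct. In bulk RNA-seq of such cells, the paper found the untranslated ends of Hoxa9 without reads, whether uninduced or induced. It takes this as a sign that the fusion transgene was expressed and the endogenous gene was not. The Hoxa9 levels below are therefore not read as activity of the endogenous gene. The origin of the single-cell Hoxa9 UMIs was not tested.

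The genes lie on separate chromosomes except for the HOXA members. In GRCm38.p6, Hoxa7 spans chr6:52215623-52218573, Hoxa9 spans chr6:52223097-52227370 and Hoxa10 spans chr6:52231197-52240854, all on the minus strand. Meis1 lies at chr11:18880428-19019651, Pbx2 at chr17:34592259-34597400, Pbx3 at chr2:34171457-34372045, Myb at chr10:21124930-21160984, Sox4 at chr13:28948919-28953699 and Bcl2 at chr1:106538176-106714290. RefSeq places long noncoding genes across parts of Hoxa10, Meis1 and Bcl2 (Gm52902, Gm16141 and Gm37053) and across all of Sox4 (Gm46405), and of these Gm16141 alone has a column in the count table. How the counting treated strand is not given in the sources used here. Whether reads from these genes were counted for the members they overlap is therefore not known.

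The 250 bases upstream of the start are shown for Hoxa9 and for the target genes Myb and Sox4, which were both lower after estradiol withdrawal. They come from RefSeq promoters of GRCm38.p6, all on the minus strand, at chr6:52227371-52227620 (Hoxa9), chr10:21160985-21161234 (Myb) and chr13:28953700-28953949 (Sox4). Capitals mark matches to 5 short motifs on either strand, which are TGATTTAT and TGATTGAT (PBX with a HOX protein), TGACAG (MEIS), CCAAT (the CCAAT box) and TTTGGCGG (E2F).
Hoxa9: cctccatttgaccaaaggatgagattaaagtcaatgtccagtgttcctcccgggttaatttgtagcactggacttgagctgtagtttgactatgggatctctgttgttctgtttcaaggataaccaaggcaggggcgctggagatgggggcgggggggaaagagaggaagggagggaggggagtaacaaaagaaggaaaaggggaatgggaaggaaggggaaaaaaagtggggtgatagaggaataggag
Myb: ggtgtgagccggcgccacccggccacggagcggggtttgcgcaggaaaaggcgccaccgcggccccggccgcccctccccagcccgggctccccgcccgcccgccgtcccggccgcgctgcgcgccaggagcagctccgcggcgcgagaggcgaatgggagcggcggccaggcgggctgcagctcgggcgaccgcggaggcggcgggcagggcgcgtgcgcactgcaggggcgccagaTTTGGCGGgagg
Sox4: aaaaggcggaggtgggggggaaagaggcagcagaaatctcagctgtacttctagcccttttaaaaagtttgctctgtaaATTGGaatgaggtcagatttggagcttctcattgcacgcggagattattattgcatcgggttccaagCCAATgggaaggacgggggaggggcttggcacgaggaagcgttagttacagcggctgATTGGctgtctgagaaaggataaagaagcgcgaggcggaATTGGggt

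Of the 9 genes, 8 had such a window. In none of those 8 was a match to TGATTTAT, TGATTGAT or TGACAG found, while these motifs were present in 0.837%, 0.67% and 15.9% of all 32851 windows. Sox4 held 4 matches to CCAAT, between 8 and 171 bases upstream of its start, and Meis1 and 1 of 2 Hoxa10 windows held 1 each, against 33.8% of all windows with at least 1. Myb held the E2F motif TTTGGCGG 12 bases upstream of its start, a motif present in 0.444% of all windows. The Myb window was 81.2% G and C, against a median of 52.4% over all windows, and those of Sox4 and Hoxa9 were 50.8% and 49.6%. These matches describe letters and not bound sites. HOXA9 acts largely at distant enhancers, which these windows do not cover.

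Hoxa9 did not differ over the CAF-1 OFF course beyond counting error, and took a larger share of UMIs after estradiol withdrawal, though at 96 h it was lower per cell. In CAF-1 OFF it was at 24.7 CPM (104 UMIs, interval 20.2 to 29.9) at 0 h, 24.2 CPM (135 UMIs, 20.3 to 28.6) at 48 h and 23.4 CPM (126 UMIs, 19.5 to 27.8) at 96 h. Along the HOXA9 OFF course its level was 23.1 CPM (97 UMIs, 18.8 to 28.2) at 0 h, 71.9 CPM (382 UMIs, 64.9 to 79.5) at 48 h and 53.3 CPM (188 UMIs, 46.0 to 61.5) at 96 h. The libraries of HOXA9 OFF at 48 and 96 h therefore were the highest and the next highest, without overlap of their intervals with each other or with the rest, and the order of the other 4 was within counting error.

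The fold for Hoxa9 against 0 h was 0.979 at 48 h along the CAF-1 OFF course (interval 0.752 to 1.28) and 0.947 at 96 h (0.724 to 1.24). After estradiol withdrawal Hoxa9 was 3.11-fold higher (2.48 to 3.92) at 48 h and 2.30-fold higher (1.79 to 2.98) at 96 h. On the log2 scale after adding 10 CPM, the scale on which genes were counted, these ratios were −0.02, −0.06, 1.31 and 0.93, so that only HOXA9 OFF at 48 h passed 2-fold. The median over all 4789 genes tested was −0.23 in that comparison.

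The rise of Hoxa9 depended on the scale and on the cells kept. Per 100 cells there were 20.5 Hoxa9 UMIs at 0 h, 27.2 at 48 h and 12.5 at 96 h in HOXA9 OFF, which is 1.33-fold higher (1.06 to 1.68) at 48 h and 1.65-fold lower (1.28 to 2.12) at 96 h. In CAF-1 OFF there were 16.1, 14.6 and 13.8 per 100 cells. More RNA of this gene per cell and less RNA of other genes cannot be told apart from CPM alone. The barcodes removed by the cell filters held Hoxa9 at 76.9 CPM in HOXA9 OFF at 0 h, against 23.1 CPM in the kept cells of that library, and with all barcodes kept the log2 ratios at 48 and 96 h were 0.98 and 0.57. The plot of levels by library shows the members with their counting intervals.

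**Figure D1:**
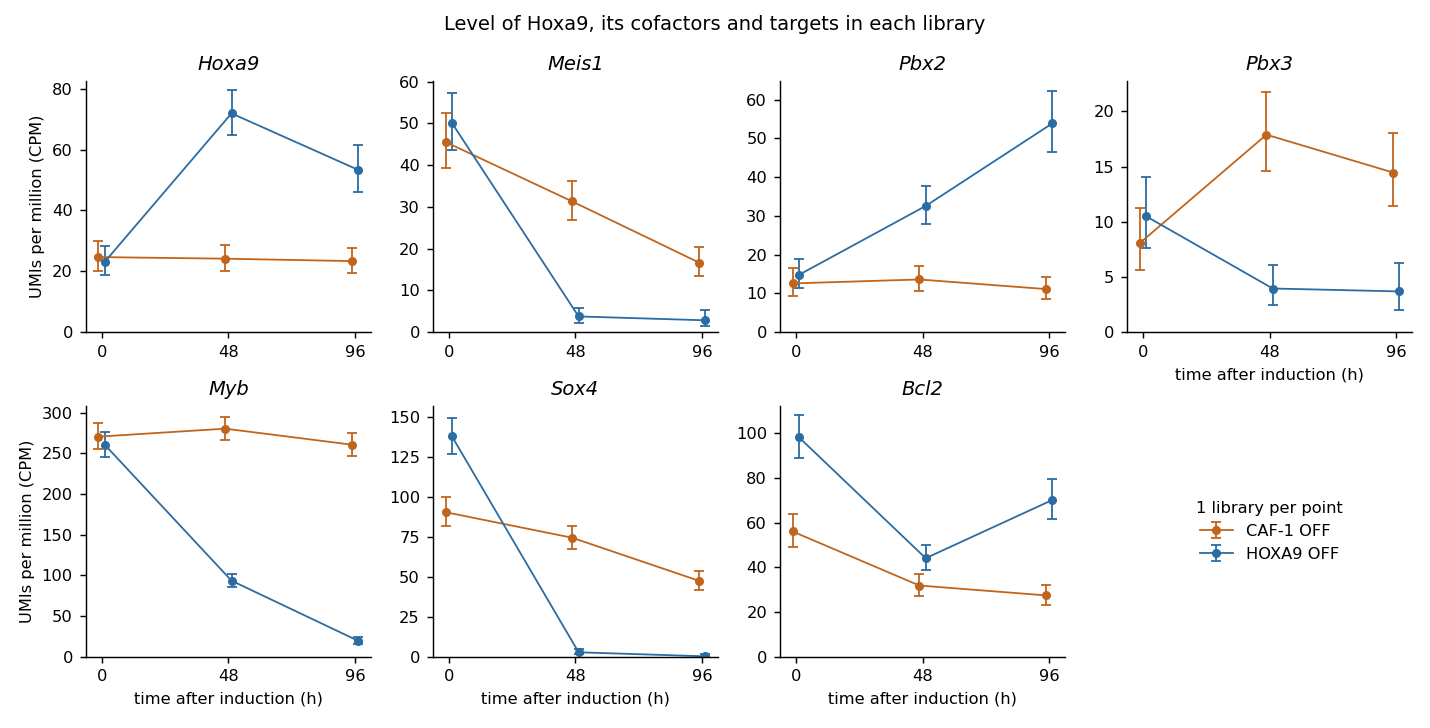
Level of each of 7 genes in CPM (y axis) against time in hours (x axis), in CAF-1 OFF (orange) and HOXA9 OFF (blue). Each point is 1 library, bars are exact 95% Poisson intervals that cover counting error only, and Hoxa7 and Hoxa10 are left out because they had at most 1 UMI. Meis1, Myb and Sox4 reach 2.84, 19.6 and 0.284 CPM in HOXA9 OFF at 96 h, while Hoxa9 and Pbx2 lie above their 0 h level there on this scale but not per cell.

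The neighbouring genes of the HOXA cluster were close to absent. Hoxa10 had 0 UMIs among the 28223278 UMIs of all kept cells, which allows up to 0.106 CPM, and Hoxa7 had 1 UMI, in CAF-1 OFF at 48 h. Both encode HOX factors often expressed together with Hoxa9 in progenitors and leukaemia. Among all 39 HOX genes in the table, 3 had a UMI at all, namely Hoxa9, Hoxa7 and Hoxb4, the last with 1 UMI in CAF-1 OFF at 96 h. With all removed barcodes added, Hoxa7 remained at 1 UMI and Hoxa10 at 0.

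Meis1, which encodes the MEIS partner of HOXA9, fell in both arms. In CAF-1 OFF it was at 45.6 CPM (192 UMIs, interval 39.3 to 52.5) at 0 h, 31.3 CPM (175 UMIs, 26.8 to 36.3) at 48 h and 16.7 CPM (90 UMIs, 13.4 to 20.5) at 96 h. The HOXA9 OFF libraries held it at 50.1 CPM (210 UMIs, 43.6 to 57.4) at 0 h, 3.77 CPM (20 UMIs, 2.30 to 5.82) at 48 h and 2.84 CPM (10 UMIs, 1.36 to 5.22) at 96 h. The uninduced libraries overlapped, the CAF-1 OFF libraries stepped down without overlap, and the later HOXA9 OFF libraries were the lowest of all.

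Against 0 h, Meis1 was 2.73-fold lower (2.11 to 3.55) in CAF-1 OFF at 96 h and 13.3-fold lower (8.40 to 22.2) and 17.7-fold lower (9.42 to 37.4) in HOXA9 OFF at 48 and 96 h. The difference in CAF-1 OFF at 48 h was 1.46-fold (1.18 to 1.80) and did not reach 2-fold. The log2 ratio in CAF-1 OFF at 96 h was −1.06, close to the limit, and it lay between −1.23 and −0.97 over 6 ways of scaling the libraries. On this log2 scale Meis1 was the only one of the 6 genes tested that passed 2-fold in CAF-1 OFF.

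Pbx2 and Pbx3 encode PBX partners, which enter complexes with HOX and MEIS proteins, and in HOXA9 OFF they differed in direction on the CPM scale. Pbx2 was at 12.6, 13.6 and 11.1 CPM along the CAF-1 OFF course (53, 76 and 60 UMIs). Withdrawal of estradiol took it through 14.8 CPM (62 UMIs, interval 11.3 to 19.0), 32.6 CPM (173 UMIs, 27.9 to 37.8) and 53.9 CPM (190 UMIs, 46.5 to 62.2). The CAF-1 OFF libraries and the uninduced HOXA9 OFF library could not be ordered within counting error, and each later HOXA9 OFF library lay above the one before.

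The fold for Pbx2 in HOXA9 OFF was 2.20 (1.64 to 2.99) at 48 h and 3.64 (2.72 to 4.94) at 96 h, with log2 ratios of 0.78 and 1.37. Per 100 cells, however, Pbx2 stood at 13.1, 12.3 and 12.6 UMIs in HOXA9 OFF, and the fold per cell was 0.94 (0.699 to 1.28) at 48 h and 0.96 (0.717 to 1.30) at 96 h. The number of Pbx2 molecules captured per cell thus did not differ from 0 h beyond counting error while mean UMIs per cell went from 8859 to 2334.

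Pbx3 was below the mean level for counting, and its values are given as a description. It was at 8.07 CPM (34 UMIs, interval 5.59 to 11.3), 17.9 CPM (100 UMIs, 14.6 to 21.8) and 14.5 CPM (78 UMIs, 11.4 to 18.1) in CAF-1 OFF. Without estradiol the course ran through 10.5 CPM (44 UMIs, 7.63 to 14.1), 3.95 CPM (21 UMIs, 2.45 to 6.05) and 3.69 CPM (13 UMIs, 1.96 to 6.31). CAF-1 OFF at 48 h lay above both uninduced libraries and at 96 h above its own, and the later HOXA9 OFF libraries lay below their own uninduced library. The folds were 2.22 (1.49 to 3.38) and 1.79 (1.18 to 2.77) in CAF-1 OFF, and Pbx3 was 2.66-fold lower (1.55 to 4.70) and 2.85-fold lower (1.51 to 5.76) in HOXA9 OFF. Per cell these falls were 6.22-fold and 10.8-fold.

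On the CPM scale Myb stayed level in CAF-1 OFF and fell in HOXA9 OFF. It was at 271 CPM (1141 UMIs, interval 255 to 287), 281 CPM (1568 UMIs, 267 to 295) and 261 CPM (1407 UMIs, 247 to 275) along the CAF-1 OFF course. Its HOXA9 OFF values were 261 CPM (1092 UMIs, 245 to 277), 93.6 CPM (497 UMIs, 85.5 to 102) and 19.6 CPM (69 UMIs, 15.2 to 24.8). The 4 libraries in which the fusion had estradiol were within counting error of their neighbours, and the other 2 stood far below them and apart from each other.

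The fold for Myb in CAF-1 OFF was 1.04 (0.959 to 1.12) at 48 h and 0.963 (0.890 to 1.04) at 96 h, the narrowest intervals among the 9 genes. Per cell, Myb in CAF-1 OFF was at 0.959 (0.888 to 1.04) and 0.876 (0.809 to 0.948) of its 0 h number, slightly lower at 96 h. In HOXA9 OFF it was 2.78-fold lower (2.50 to 3.1) at 48 h and 13.3-fold lower (10.4 to 17.2) at 96 h, and from 48 to 96 h it was lower by a further 4.78-fold (3.71 to 6.24). Per cell, the falls from 0 h were 6.52-fold and 50.5-fold. Myb differed in this from Meis1, which was 1.33-fold lower (0.593 to 3.18) at 96 h than at 48 h and so had reached its low level by 48 h within counting error.

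Sox4 had the deepest fall of the 6 genes tested in HOXA9 OFF, though not in CAF-1 OFF. In CAF-1 OFF it was at 90.6 CPM (382 UMIs, interval 81.8 to 100.2), 74.6 CPM (417 UMIs, 67.6 to 82.1) and 47.6 CPM (257 UMIs, 42.0 to 53.8). The HOXA9 OFF course read 138 CPM (579 UMIs, 127 to 150) at 0 h, 2.83 CPM (15 UMIs, 1.58 to 4.66) at 48 h and 0.284 CPM (1 UMI, 0.00718 to 1.58) at 96 h. The later HOXA9 OFF libraries were nearly empty of this transcript, and each CAF-1 OFF library kept it.

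Sox4 was 48.9-fold lower (29.4 to 88.0) at 48 h in HOXA9 OFF, and 487-fold lower at 96 h with a counting interval from 87.1 to 19300 because 1 UMI remained. In CAF-1 OFF it was 1.21-fold lower (1.05 to 1.40) at 48 h and 1.90-fold lower (1.62 to 2.24) at 96 h, and the log2 ratios of −0.25 and −0.80 did not pass 2-fold. The uninduced HOXA9 OFF library already stood 1.52-fold above the uninduced CAF-1 OFF library (1.34 to 1.74). Against that other 0 h library, Sox4 in CAF-1 OFF at 96 h passed 2-fold.

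Bcl2 was lower at every later time than in the uninduced library of its arm. On the log2 scale after adding 10 CPM it passed the 2-fold limit in none of the 4 comparisons. In CAF-1 OFF it was at 56.0 CPM (236 UMIs, interval 49.1 to 63.6), 31.9 CPM (178 UMIs, 27.3 to 36.9) and 27.4 CPM (148 UMIs, 23.2 to 32.2). Levels in the HOXA9 OFF arm were 98.1 CPM (411 UMIs, 88.8 to 108), 44.1 CPM (234 UMIs, 38.6 to 50.1) and 70.1 CPM (247 UMIs, 61.6 to 79.4). The uninduced libraries did not overlap, and in HOXA9 OFF the level at 96 h stood between those at 48 and 0 h.

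The folds for Bcl2 were 1.76 lower (1.44 to 2.15) and 2.04 lower (1.65 to 2.52) in CAF-1 OFF, and 2.23 lower (1.89 to 2.62) and 1.40 lower (1.19 to 1.65) in HOXA9 OFF. The log2 ratio in HOXA9 OFF at 48 h was −0.9994, just inside the limit. From 48 to 96 h in HOXA9 OFF the CPM was 1.59-fold higher (1.32 to 1.91), while UMIs per 100 cells went from 86.9 at 0 h to 16.7 and 16.4, a 5.21-fold and a 5.31-fold lower number per cell. At 96 h the direction of the CPM ratio turned with the scaling, from −0.43 to 0.23 at most. The uninduced libraries differed 1.75-fold (1.49 to 2.06), a step of the size of several of the differences over time.

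**Figure D2:**
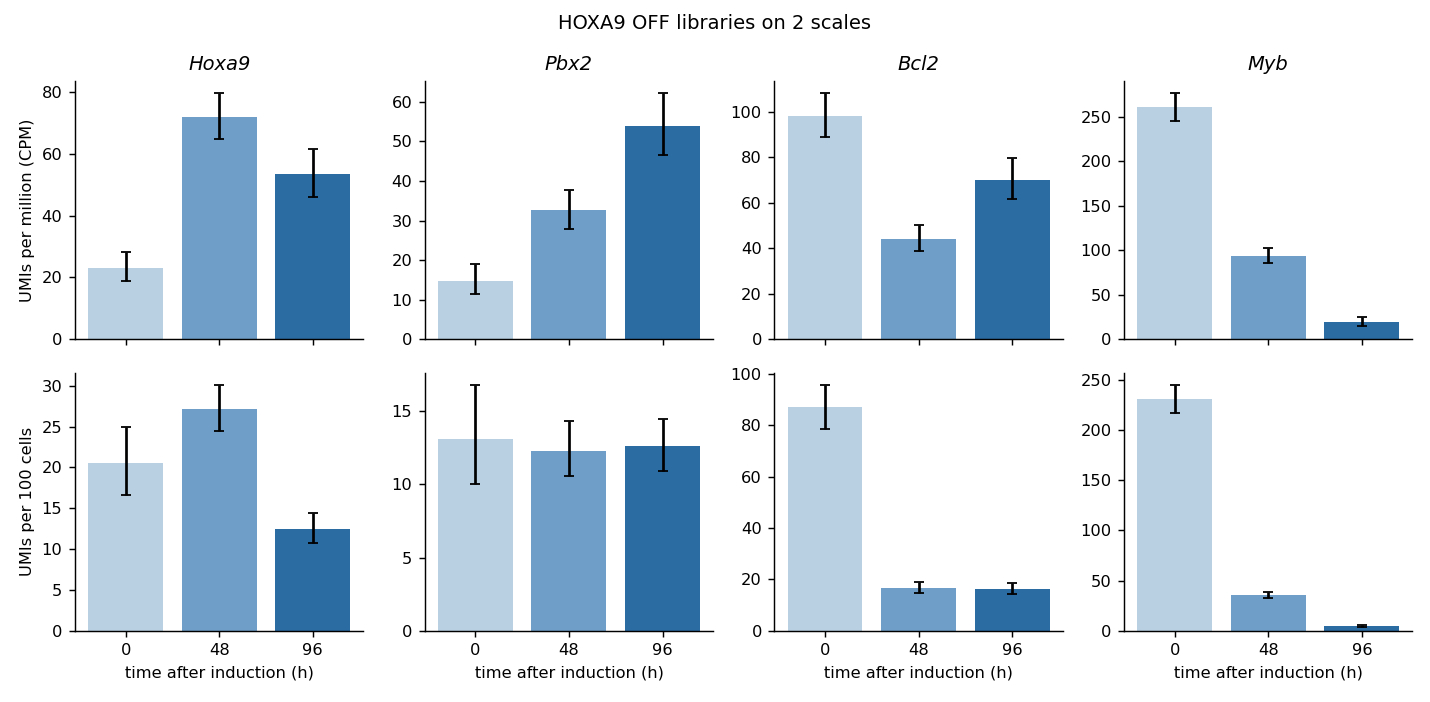
Hoxa9, Pbx2, Bcl2 and Myb in the 3 HOXA9 OFF libraries (x axis, hours) on 2 scales, CPM in the upper row and UMIs per 100 kept cells in the lower row (y axes, from 0). Bars are single libraries with exact 95% Poisson intervals. Pbx2 goes from 14.8 to 53.9 CPM but from 13.1 to 12.6 per 100 cells, and Myb falls on both scales.

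Counted together, 0 of the 6 genes tested were at least 2-fold higher or lower in CAF-1 OFF at 48 h, where 2.76% of all 4789 genes were higher and 0.0418% lower. At 96 h in CAF-1 OFF, 1 of 6 was lower (Meis1), against 0.856% of all genes, and 0 were higher, against 5.22%. In HOXA9 OFF at 48 h, 3 of 6 were lower (Meis1, Myb and Sox4), where 19.6% of all genes were lower, and 1 was higher (Hoxa9), where 13% were. At 96 h the same 3 genes were lower, against 39.8% of all genes, and 1 was higher (Pbx2), against 18.1%. The median log2 ratio of the 6 genes was −0.14 at 48 h and −0.45 at 96 h for CAF-1 OFF, −1.19 and −1.33 for HOXA9 OFF, beside 0, −0.08, −0.23 and −0.56 over all genes. In HOXA9 OFF at 96 h a fall of 2-fold was thus common among all genes.

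**Figure D3:**
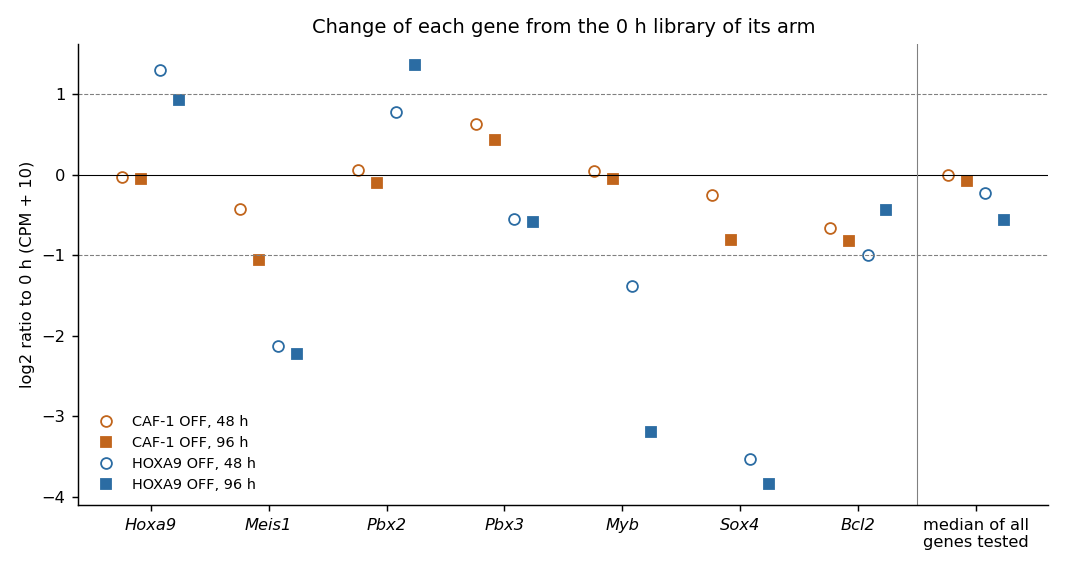
Log2 ratio of CPM to the 0 h library of the same arm after adding 10 CPM to both (y axis) for 7 genes and for the median of all 4789 genes tested (x axis). Open circles are 48 h and filled squares 96 h, orange is CAF-1 OFF and blue HOXA9 OFF, and dashed lines mark 2-fold. Meis1, Myb and Sox4 lie below the lower line in HOXA9 OFF at both times, and Meis1 alone does so in CAF-1 OFF, at −1.06.

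Between the uninduced libraries, 0 of the 6 genes differed by 2-fold, where 0.752% of all genes were higher on the HOXA9 OFF side and 0.146% lower. Hoxa9, Meis1, Pbx2 and Myb had log2 ratios between −0.07 and 0.14. Sox4 and Bcl2 stood at 0.56 and 0.71. With the 0 h library of the other arm as reference, a comparison added after the values were seen, 3 genes were lower and 1 higher at each time in HOXA9 OFF, where 22% and 40.7% of all genes were lower and 13.3% and 18.4% higher. In CAF-1 OFF at 96 h, 3 genes in place of 1 were lower with that reference, beside 0.94% of all genes.

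The share of cells with a UMI was compared after each cell had been thinned to 1300 UMIs, since deeper cells show more genes. Thinning left out 134 cells of HOXA9 OFF at 96 h and between 1 and 28 cells of each other library. Myb had a UMI in 29.4%, 28.7% and 28.4% of thinned cells along the CAF-1 OFF course, against 27.5% (interval 23.6 to 31.8), 9.59% (8.09 to 11.3) and 2.11% (1.42 to 3.01) of HOXA9 OFF cells. Without thinning the HOXA9 OFF shares for Myb were 86%, 25.3% and 3.71%.

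Hoxa9 had a UMI in 2.53% (interval 1.45 to 4.07), 3.09% (2.06 to 4.43) and 2.66% (1.71 to 3.93) of thinned CAF-1 OFF cells. In HOXA9 OFF the thinned shares were 4.03% (2.44 to 6.21), 7.99% (6.62 to 9.55) and 6.03% (4.83 to 7.42), so 48 h lay above 0 h and 96 h overlapped both. Without thinning they were 18.2%, 21.3% and 10.9%, which puts 96 h below 0 h. Meis1 went from 6.14% to 0.218% and 0.363% of thinned HOXA9 OFF cells and from 5.69% to 4.3% and 2.44% in CAF-1 OFF, and Sox4 from 14.6% to 0.145% and 0.0727% and from 11.4% to 8.82% and 6.32%. Meis1 and Sox4 in late HOXA9 OFF cells rested on at most 5 thinned cells each. For Bcl2 the HOXA9 OFF shares were 10.8%, 5.45% and 9.38%.

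The members were also followed in groups of cells set by marker genes that do not include them. A cell was placed by the list that took the largest share of its UMIs, at least 1%. The lists were S100a8 with S100a9 (neutrophil granule proteins), Prg2, Epx and Prg3 (eosinophil granule proteins), Cpa3, Mcpt8, Gzmb and Cma1 (mast cell or basophil proteases), and Mpo, Elane, Prtn3 and Ctsg (primary granule proteins). These groups are ranges of a share and not cell types. In CAF-1 OFF many cells lay within 1.5 times of the limit, 202 of 647, 504 of 927 and 630 of 911, and in HOXA9 OFF 138 of 473, 343 of 1404 and 49 of 1510. Groups of under 50 cells were left without a value.

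In HOXA9 OFF at 48 h, Hoxa9 was lowest in the Prg2-rich cells. It was at 36.8 CPM (interval 25.3 to 51.7) in 243 Prg2-rich cells, at 89.1 CPM (66.7 to 116) in 210 S100a8/S100a9-rich cells, at 101 CPM (79.3 to 127) in 131 primary-granule-rich cells and at 72.5 CPM (63.3 to 82.6) in 814 cells rich in none of the lists. The interval of the Prg2-rich cells overlapped none of the other 3, which overlapped each other in part. Per 100 cells, the Prg2-rich cells held 13.6 Hoxa9 UMIs and the primary-granule-rich cells 55.7. At 96 h the 1300 S100a8/S100a9-rich cells, which were 86.1% of that library, held Hoxa9 at 58 CPM (49.5 to 67.7), and the 51 Prg2-rich cells at 38.3 CPM (14.0 to 83.3).

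On the CPM scale Myb, in contrast, was highest in the Prg2-rich cells at 48 h, and its UMIs per cell were not compared between groups. It was at 152 CPM (127 to 179) in Prg2-rich cells, 98.4 CPM (76.9 to 124) in primary-granule-rich cells, 85.1 CPM (75.1 to 96.1) in cells rich in no list and 45.4 CPM (29.9 to 66.0) in S100a8/S100a9-rich cells. At 96 h it was at 153 CPM (98.1 to 228) in Prg2-rich cells and 11.1 CPM (7.55 to 15.8) in S100a8/S100a9-rich cells. The Myb intervals of the Prg2-rich cells at 48 and 96 h overlapped. Both lay below the 267 CPM (251 to 284) of the 428 uninduced cells rich in no list. These 2 groups were unlike in the list itself, whose median share of a cell's UMIs was 10.1% at 48 h and 2.96% at 96 h. At 96 h the 51 Prg2-rich cells had 24 of the 69 Myb UMIs of the library.

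Sox4 and Meis1 were low in every group after estradiol withdrawal. Sox4 lay between 2.27 and 4.46 CPM in the 4 groups at 48 h, on 2 to 7 UMIs each, and had 0 UMIs in the 1300 S100a8/S100a9-rich cells at 96 h. Meis1 was at 5.52 CPM (3.22 to 8.84) in the cells rich in no list at 48 h, and had at most 1 UMI in each of the other 3 groups. In 1300 S100a8/S100a9-rich cells at 96 h, 0.692% had a Meis1 UMI, at a median of 1951 UMIs per cell. Mature neutrophils are known to lack Meis1, and free RNA in the droplets gives UMIs at a rate that was not measured here, so shares this low cannot be told apart from such background.

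Pbx2 and Bcl2 varied less between the groups. Pbx2 lay between 23.6 and 38.6 CPM in the 4 groups at 48 h and between 31.9 and 56.6 CPM at 96 h, with overlapping intervals at both times. Bcl2 lay between 27.7 and 49 CPM at 48 h and between 69.5 and 76.5 CPM at 96 h. The higher Bcl2 CPM at 96 h than at 48 h was found within the S100a8/S100a9-rich cells, at 69.5 CPM (60.1 to 80) against 33.6 CPM (20.5 to 51.9). In the cells rich in no list, at 71.1 CPM (51.0 to 96.4) against 47.4 CPM (40.1 to 55.8), the intervals overlapped. Per 100 cells, the library held 16.7 Bcl2 UMIs at 48 h and 16.4 at 96 h, and the groups were not compared on that scale.

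**Figure D4:**
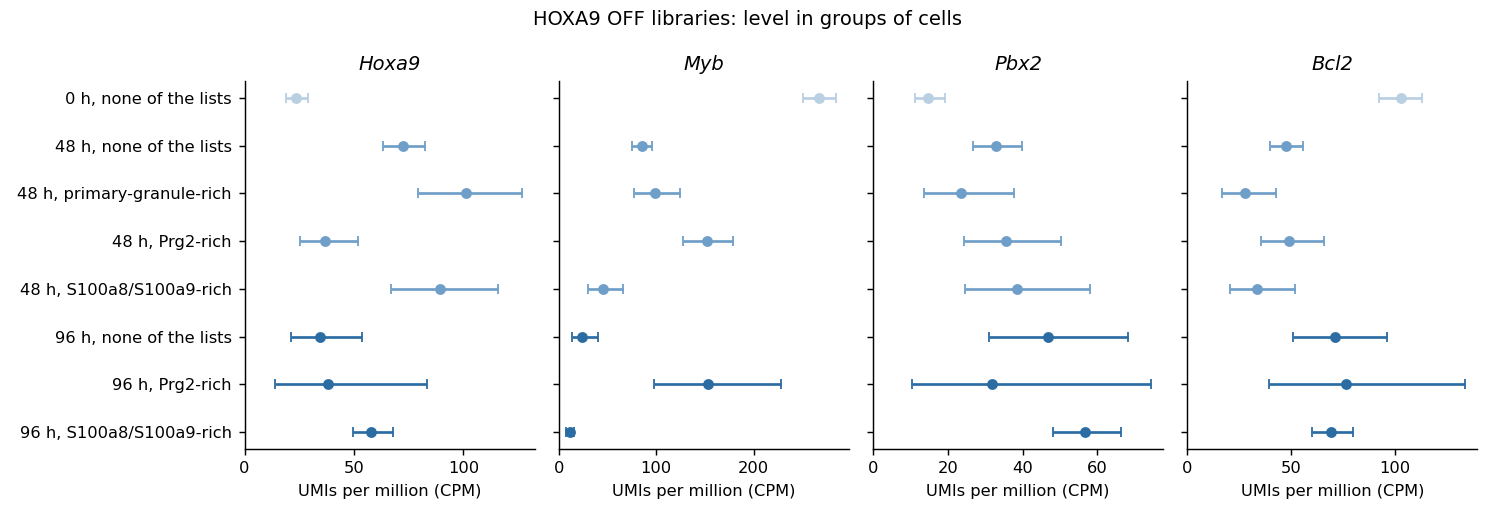
Level of Hoxa9, Myb, Pbx2 and Bcl2 in CPM (x axis) in groups of kept HOXA9 OFF cells at 0, 48 and 96 h (y axis), set by the marker list that held the largest share of a cell's UMIs. Points are sums over the cells of a group in 1 library, with exact 95% Poisson intervals. At 48 h the Prg2-rich cells have the lowest Hoxa9 level, 36.8 CPM, and the highest Myb level, 152 CPM.

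In CAF-1 OFF at 48 h the same division separated Meis1, Sox4, Bcl2 and Myb beyond counting error, and Hoxa9 not. At that time the 293 primary-granule-rich cells held Sox4 at 35.3 CPM (27.0 to 45.5), Meis1 at 19.4 CPM (13.4 to 27.3) and Bcl2 at 14.7 CPM (9.52 to 21.7). The 623 cells rich in no list held them at 92.7 CPM (83.3 to 103), 37.1 CPM (31.2 to 43.7) and 39.7 CPM (33.6 to 46.5). Hoxa9 was at 20.6 CPM (14.4 to 28.7) and 26.1 CPM (21.2 to 31.8) in these groups, and Myb at 240 CPM (217 to 265) and 296 CPM (279 to 314), which did not overlap for Myb. At 96 h the Bcl2 intervals of the groups overlapped (18.6 to 29.5 against 26.7 to 43.4), and at 0 h those of Meis1 (14.4 to 48.8 against 41.1 to 55.3) and Bcl2 (17.8 to 54.7 against 51.2 to 66.9) did.

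Within the cells rich in no list, Meis1 in CAF-1 OFF was at 47.8, 37.1 and 23.9 CPM at 0, 48 and 96 h, Sox4 at 96.6, 92.7 and 62.2 CPM and Bcl2 at 58.7, 39.7 and 34.3 CPM. In the primary-granule-rich cells, whose share of the library was 11.6%, 31.6% and 59.9%, Sox4 was at 41.9, 35.3 and 37.5 CPM and Meis1 at 27.9, 19.4 and 12.4 CPM. Sox4 in this group did not differ between the times beyond counting error. The part that the growing share of primary-granule-rich cells had in the library totals of Sox4 and Meis1 was not tested.

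The TALE genes were read, together with the PBX-binding protein gene Pbxip1, from a list of 12 genes, of which 10 had a UMI. The 4 that reached the mean level were the members Meis1 and Pbx2 with Tgif1 and Pbxip1. Pbxip1, whose product binds PBX proteins and keeps them from DNA, was at 4.77 CPM in the uninduced HOXA9 OFF library, 50.8 CPM at 48 h and 144 CPM at 96 h, which is 10.7-fold (6.76 to 17.7) and 30.1-fold (19.3 to 49.7) higher. It was also higher per cell, 4.55-fold and 7.93-fold. In CAF-1 OFF it was at 9.73, 14.1 and 12.8 CPM. Tgif1, a TALE repressor, was 2.50-fold lower (1.98 to 3.17) in HOXA9 OFF at 48 h, and at 51.4 CPM at 96 h against 51.8 CPM at 0 h, where per cell it was 3.83-fold lower (3.13 to 4.69). Of the genes of this list that are not members, Pbxip1 was thus higher at both times in HOXA9 OFF and Tgif1 lower at 48 h, where 13% and 18.1% of all genes were higher by time and 19.6% and 39.8% lower.

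Of 9 further genes that HOXA9 or MEIS1 is known to raise, 7 were tested, and 3 of them were lower and 2 higher at each time in HOXA9 OFF, beside 19.6% and 39.8% of all genes lower and 13% and 18.1% higher at 48 and 96 h. Cd34, a surface protein of progenitors, went from 660 CPM at 0 h to 67.2 CPM and 28.4 CPM and was 23.3-fold lower (19.1 to 28.7) at 96 h. Flt3, a cytokine receptor, was 41.1-fold lower (22.0 to 86.4) at 48 h and 19.5-fold lower (11.4 to 36.0) at 96 h. Cdk6, a kinase of the cell cycle, was 5.47-fold lower (4.84 to 6.19) and 16.8-fold lower (13.2 to 21.7). In CAF-1 OFF none of these 3 passed 2-fold, where 0.0418% and 0.856% of all genes were lower by time. Cd34 stood at 756, 738 and 707 CPM there.

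The genes of that list that rose were others. Pim1, a survival kinase, was 4.48-fold higher (3.20 to 6.40) in CAF-1 OFF at 96 h and 7.49-fold (5.37 to 10.7) and 7.38-fold (5.24 to 10.6) higher in HOXA9 OFF. Ikzf2, a zinc finger factor of lymphoid and stem cells, was 3.89-fold higher (3.15 to 4.86) and 6.27-fold higher (5.10 to 7.77) in CAF-1 OFF, and 2.83-fold higher (2.23 to 3.61) in HOXA9 OFF at 48 h, where per cell it was 1.21-fold higher with an interval from 0.954 to 1.54. Igf1r, a growth factor receptor, was 3.14-fold higher (2.26 to 4.46) in CAF-1 OFF and 5.10-fold higher (3.56 to 7.46) in HOXA9 OFF at 96 h. The median log2 ratio of the 7 genes was 0.34 and 0.48 along the CAF-1 OFF course, against −0.34 and −0.38 without estradiol. Per cell, no gene of the list was 2-fold higher in HOXA9 OFF at 96 h, beside 6.08% of all genes.

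Of 7 factors that share enhancers with HOXA9, 4 were tested. Spi1, which encodes the myeloid factor PU.1, went from 154 CPM to 814 CPM and 1049 CPM in HOXA9 OFF, 5.28-fold (4.86 to 5.74) and 6.80-fold (6.26 to 7.41) higher, and 2.25-fold and 1.79-fold per cell. Runx1, a core blood factor, was 3.37-fold higher (2.51 to 4.59) at 48 h and Kmt2c, an enhancer methyltransferase, 2.61-fold higher (2.02 to 3.40) at 96 h, where per cell Kmt2c was 1.45-fold lower. Per 100 cells, Runx1 stood at 11.8 UMIs at 0 h, 17 at 48 h and 7.62 at 96 h in HOXA9 OFF. Of these 4 genes, 2 were higher at each time in HOXA9 OFF, beside 13% and 18.1% of all genes, and 0 in CAF-1 OFF, beside 2.76% and 5.22%. Their medians were 0.81 and 0.96 for HOXA9 OFF and 0.38 and 0.63 for CAF-1 OFF, where those over all genes were −0.23, −0.56, 0 and −0.08.

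Genes of the MLL and menin complexes, which keep HOX genes active, were counted next. Of 6 tested genes among 12 listed, 2 were lower at 48 h and 3 at 96 h in HOXA9 OFF, beside 19.6% and 39.8% of all genes. None of the 6 was higher, beside 13% and 18.1% of all genes. Mllt3, a subunit of the elongation machinery tied to MLL, was 8.64-fold lower (5.75 to 13.5) and 17.2-fold lower (8.86 to 38.2). Psip1, which tethers MLL and menin to chromatin, was 5.48-fold lower (4.50 to 6.73) and 5.35-fold lower (4.24 to 6.83), and Men1, which encodes menin, 3.07-fold lower (2.12 to 4.54) at 96 h. In CAF-1 OFF 0 of the 6 passed 2-fold at either time. Of all genes, 2.76% and 5.22% were higher there by time and 0.0418% and 0.856% lower. The medians were −0.12 and −0.45 along the CAF-1 OFF course, against −0.71 and −0.83 without estradiol, beside 0, −0.08, −0.23 and −0.56 over all genes.

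Relatives of the targets were mostly below the mean level for counting. Among 6 genes related to Myb and Sox4 or bound by MYB, Crebbp, a coactivator, was the only one tested and passed 2-fold in no comparison. Of 6 other survival genes of the BCL2 family, Mcl1 alone was tested, and it was 6.27-fold higher (5.15 to 7.69) in HOXA9 OFF at 96 h and 1.65-fold higher per cell. Of 8 death genes of the family, 5 were tested. Pmaip1, which encodes NOXA, an antagonist of MCL1, was higher in CAF-1 OFF at 96 h by 4.57-fold (3.17 to 6.79) and in HOXA9 OFF by 3.74-fold (2.46 to 5.90) and 6.56-fold (4.33 to 10.3), or 1.60-fold and 1.73-fold per cell. Bid, which links death receptors to mitochondria, was 2.94-fold lower (2.51 to 3.45) and 2.54-fold lower (2.13 to 3.03) in HOXA9 OFF.

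Finally, the genes whose course over the 6 libraries was most like each member were listed. Likeness was the root mean square (RMS) difference of log2(CPM + 10) after each gene's own mean over the 6 libraries had been taken off, among the 4789 genes tested. For Hoxa9 these were Tspo (0.0487), Slc12a9 (0.0751) and Fam49b (0.0754). Tspo, a protein of the outer mitochondrial membrane, was at 342, 338 and 361 CPM along the CAF-1 OFF course, against 336, 844 and 684 CPM along that of HOXA9 OFF. For Meis1 they were Hilpda (0.115), Hsph1 (0.119) and Hmga2 (0.135), and Hmga2, a chromatin protein of progenitors, was at 47.9, 33.1 and 16.3 CPM and 62, 2.07 and 2.55 CPM.

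For Pbx2 the nearest genes were Prex1 (0.0508), Cmip (0.0608) and Add1 (0.0668), and for Myb they were Mrpl42 (0.0782), Fen1 (0.0821) and Rfc4 (0.0828), of which Fen1 and Rfc4 serve DNA replication. Sox4 and Bcl2 had no such close neighbour. Sox4 lay 0.257 from Gnl3, 0.274 from Fam136a and 0.288 from Rangrf, and Bcl2 lay 0.262 from Cltc, 0.292 from Zfp36l2 and 0.304 from Ttc32. Among the members themselves, Hoxa9 and Pbx2 were the nearest pair (0.29), Meis1 lay 0.624 from Sox4 and 0.681 from Myb, and Pbx2 and Sox4 were the farthest pair (2.02). These distances describe 6 libraries of 2 clones.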

How the data were processed

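UMI counts per gene and barcode were used as the authors deposited them, whole numbers from Cell Ranger (version 3.0.1 in the submitters' notes, mouse build mm10). Barcodes were assigned to libraries by the ending of their names. Kept cells had 200 to 6000 genes and no more than 10% mitochondrial UMIs (13 genes), UMIs were summed per library and divided by the total, and no doublet caller was run. Folds are ratios of CPM, with exact binomial intervals. Log2 ratios add 10 CPM to both libraries, which understates changes of low genes. A gene with a mean of at least 20 CPM counted as higher or lower at 2-fold, and a count of 0 was given a floor of 3. Ratios and intervals were tested on simulated counts. TMM factors came from edgeR 4.0.16 and median-of-ratios factors from DESeq2 1.42.0, and Python 3.11 did the rest. The members, lists and tests were chosen with earlier results of these data known. Named genes are the 9 members, Chaf1b, markers, up to 4 genes per list and comparison past 2-fold by size, and the 3 genes most like each member. Hoxb4 and Crebbp were named after their values were seen. With 1 library per group, p-values were not computed.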

Additional observations from a re-analysis of the deposited data

How the results depend on the processing

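With a pseudocount of 1 CPM, CAF-1 OFF at 96 h had 2 members lower, beside 1.94% of all genes. In HOXA9 OFF 2 were higher at each time, beside 16% and 20%, and the Hoxa9 ratio at 48 h was 1.59. With 50 CPM, 0 were lower in CAF-1 OFF at 96 h, beside 0.146% of all genes. In HOXA9 OFF 0 were higher at either time, beside 6.06% and 11.6%, with Hoxa9 at 0.74 and 0.50. With TMM factors, CAF-1 OFF at 96 h had 0 lower, beside 0.418% of all genes. HOXA9 OFF at 96 h had 2 higher, beside 27.4%, and Hoxa9 stood at 1.55 and 1.51. With median-of-ratios factors these counts were 0 and 2, beside 0.522% and 28.4% of all genes, with Hoxa9 at 1.55 in HOXA9 OFF at 96 h. Without mitochondrial and ribosomal protein genes in the total, Hoxa9 was at 0.64 there. As UMIs per cell, 0 were higher in HOXA9 OFF at 48 h and 0 at 96 h, beside 5.18% and 6.08% of all genes. Hoxa9 was at 0.34 and −0.55, and the Pbx2 ratio at 96 h reversed to −0.0429. On that scale 1 member (Bcl2) was 2-fold apart between the uninduced libraries, beside 2.28% of all genes higher and 0.0626% lower. With all barcodes, 0 were lower in CAF-1 OFF at 96 h, beside 0.626% of all genes. In HOXA9 OFF at 48 h 0 were higher, beside 14.2%, with Hoxa9 at 0.98 and 0.57 by time. With at most 5% mitochondrial UMIs, 2 were higher in HOXA9 OFF at each time, beside 14% and 18% of all genes. At 1.5-fold, 1 and 3 were lower in CAF-1 OFF, beside 1.27% and 8.79% of all genes. In HOXA9 OFF 2 were higher at each time, beside 20.5% and 24.5%. Between the uninduced libraries 1 differed, beside 2.13% of all genes higher and 0.793% lower. At 4-fold, 0 were lower in CAF-1 OFF at 96 h, beside 0.0209% of all genes. In HOXA9 OFF 0 were higher at either time, beside 4.26% and 8.6%. With the 0 h library of the other arm, chosen after seeing the data, 1 and 3 were lower in CAF-1 OFF, beside 0.376% and 0.94%. Of genes called in HOXA9 OFF, 39.8% and 31.2% were higher as reported, 55% and 50.1% with TMM factors, 53.6% and 51.7% with median-of-ratios factors and 7.74% and 7.48% per cell, and the median over all genes was −0.23 and −0.56, 0.02 and −0.02, 0.00 and 0.02, and −1.28 and −2.03. The cause of these shifts was not tested. Meis1, Myb and Sox4 stayed past 2-fold lower in HOXA9 OFF at both times under the 6 scalings. Per cell Bcl2 was lower too, at −2.094 and −2.115, where 61.8% and 75.2% of all genes were lower. With a pseudocount of 50 CPM, Meis1 did not pass 2-fold at either time, and with 1 CPM Bcl2 did at 48 h. No paired analysis was possible because each group was 1 library, and for the same reason no replicate could be left out. Low counts limit Pbx3, and Meis1 and Sox4 in late HOXA9 OFF cells.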

Other observations

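The barcodes removed by the cell filters held Hoxa9 at a higher CPM than the kept cells in 5 libraries, with overlapping counting intervals in the 3 CAF-1 OFF libraries and separate ones in HOXA9 OFF. The values were 38.5 against 24.7 CPM, 45.3 against 24.2 CPM and 49.1 against 23.4 CPM along the CAF-1 OFF course, and 76.9 against 23.1 CPM and 126 against 71.9 CPM in HOXA9 OFF at 0 and 48 h. Myb in HOXA9 OFF at 0 h was at 117 CPM in removed barcodes and 261 CPM in kept cells, while at 48 h it was at 184 CPM (130 to 252) in removed barcodes and 93.6 CPM in kept cells. In HOXA9 OFF at 96 h the filters removed 3 barcodes, which held 0 Hoxa9 UMIs.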
